A study of Mus musculus with 9 samples.

Results

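The gene group described here consists of 36 skeletal muscle genes, measured in dorsal root ganglia (DRG) of mouse embryos. It holds the contractile proteins of the sarcomere with their fetal isoforms, the structural proteins around them, genes of the neuromuscular synapse, of calcium handling and of energy supply, and 3 muscle transcription factors. The members were taken by symbol from a table of 55247 genes. All 36 were found once, and 29 of them passed the filter for testing, which asked for at least 100 counts in at least 1 library and left 13200 genes. The other 7, Mybpc2, Tcap, Chrna1, Chrng, Myod1, Myog and Myf6, had too few counts and were not tested. The list was drawn up with the counts and genotype comparisons of these same libraries in view, so the members' differences between genotypes are a description and carry no weight as tests.

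RNA was sequenced from E18.5 DRGs of 3 genotypes with 3 libraries each. Embryos of the first genotype are labelled WT. Isl1Cre/+ embryos carried Cre in 1 copy of Isl1, a gene of sensory and motor neurons. Isl1Cre/+::Meis2LoxP/LoxP embryos, which are named mutant below, carried the same Cre together with both copies of Meis2 flanked by LoxP sites at exon 8. Whether WT or Isl1Cre/+ embryos carried LoxP alleles is not stated. Isl1Cre/+ is thus the control that shares the driver allele with the mutant, and the label of WT names neither modification. The study's reporting checklist gives its replicates as biological. Nothing in the labels says whether a library came from 1 embryo or from a pool, and the spread between libraries may still be technical in part.

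Skeletal muscle fibres contract when myosin heads of the thick filament pull on actin of the thin filament, under the control of troponin and tropomyosin, which respond to calcium released from the sarcoplasmic reticulum. Fetal muscle uses isoforms that are later replaced, such as the embryonic and perinatal myosin heavy chains, cardiac actin and the gamma subunit of the acetylcholine receptor. Sensory neurons and glia of the DRG do not build sarcomeres, whereas the ganglia lie between the vertebrae, next to the axial muscles.

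The depth of the libraries, with duplicate molecules removed, was 23854607 to 29103444 counts. Levels are given as cpm, counts scaled to a common library size with the TMM method of edgeR. Markers of the labelled tissue were present: 10 of 10 sensory neuron genes were tested, and their summed level lay between 5606, in mutant library 2, and 8149 cpm, in WT library 1, led by Prph, an intermediate filament of peripheral neurons, and Tubb3, a neuronal tubulin. The 8 genes of Schwann cells and satellite glia summed to 1086 to 1336 cpm. Meis2 had 2746 to 2919 counts in WT, 2537 to 2857 in Isl1Cre/+ and 1004 to 1084 in mutant libraries, so that the targeted gene was lowest in the libraries labelled mutant.

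Muscle genes are known to carry short recognition sequences ahead of their transcription start, and the 250 bases upstream of the RefSeq start in GRCm38.p6 were read for the 27 members that had an entry. The letters searched, on both strands, were CAGCTG, an E-box bound by MyoD and myogenin, and TATAAA, together with the CArG box bound by serum response factor and the MEF2 site. Windows are shown for the main actin pair, the fetal myosin heavy chains and the fetal receptor subunit, because the isoform results below turn on them, with the matches in capitals. Acta1 is at chr8:123894776-123895025 on the reverse strand, Actc1 at chr2:114052876-114053125 on the reverse strand, Myh3 at chr11:67078050-67078299 and Myh8 at chr11:67276874-67277123 on the forward strand, and Chrng at chr1:87205561-87205810 on the forward strand. GENCODE M21, used here for exon lengths, starts Actc1 and Chrng further upstream, so their windows lie inside the genes as annotated there.
Acta1: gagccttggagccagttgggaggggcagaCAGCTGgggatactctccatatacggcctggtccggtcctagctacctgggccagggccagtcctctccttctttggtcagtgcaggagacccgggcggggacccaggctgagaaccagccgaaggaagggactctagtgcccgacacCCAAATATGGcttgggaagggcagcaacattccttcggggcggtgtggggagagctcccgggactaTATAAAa
Actc1: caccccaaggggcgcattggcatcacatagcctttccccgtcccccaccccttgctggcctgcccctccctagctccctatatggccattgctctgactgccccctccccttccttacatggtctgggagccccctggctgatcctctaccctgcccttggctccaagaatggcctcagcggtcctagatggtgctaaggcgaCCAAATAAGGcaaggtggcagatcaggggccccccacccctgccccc
Myh3: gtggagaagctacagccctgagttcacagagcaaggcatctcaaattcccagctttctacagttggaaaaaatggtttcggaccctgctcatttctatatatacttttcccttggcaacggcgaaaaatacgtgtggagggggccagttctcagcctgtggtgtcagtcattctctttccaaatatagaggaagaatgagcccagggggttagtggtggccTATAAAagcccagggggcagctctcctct
Myh8: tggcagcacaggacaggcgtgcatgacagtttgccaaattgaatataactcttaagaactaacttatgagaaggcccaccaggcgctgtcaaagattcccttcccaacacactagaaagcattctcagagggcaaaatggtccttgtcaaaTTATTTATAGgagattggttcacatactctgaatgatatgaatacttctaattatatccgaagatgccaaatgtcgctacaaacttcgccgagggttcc
Chrng: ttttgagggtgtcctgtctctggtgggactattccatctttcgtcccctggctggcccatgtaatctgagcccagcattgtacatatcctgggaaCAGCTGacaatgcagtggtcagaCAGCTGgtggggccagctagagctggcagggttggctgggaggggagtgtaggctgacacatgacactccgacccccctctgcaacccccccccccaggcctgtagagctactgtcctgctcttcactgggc
The capitals mark CAGCTG, a CArG box and TATAAA in Acta1, a CArG box in Actc1, TATAAA in Myh3, a MEF2 site in Myh8 and 2 copies of CAGCTG in Chrng. In Myh8 a TATAAA match on the opposite strand lies inside the MEF2 site. Of 30 windows of these 27 genes, 46.7% held CAGCTG, against 13.0% of 32851 windows of all genes. A CArG box was found in 13.3% of the members' windows against 1.47% of all, in Acta1, Actc1 and Ldb3, and a MEF2 site in 3 of 30 against 2.92%, in Klhl41, Myh8 and Ttn. TATAAA stood in 16.7% of the members' windows and in 12.4% of all. These matches describe letters in the windows and are not evidence of binding.

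RNA of skeletal muscle was present in all 9 libraries, and its amount differed more between libraries of a genotype than is usual for a gene in this dataset. Each of the 36 members had at least 1 count in every library. Together they took 25650, 7492 and 48856 counts in WT libraries 1, 2 and 3, 7753, 9555 and 4125 counts in the Isl1Cre/+ libraries, and 8025, 101678 and 26444 counts in the mutant libraries. Mutant library 2 held the most and Isl1Cre/+ library 3 the fewest, and mutant library 1 lay in the range of the Isl1Cre/+ libraries. In terms of the whole library, the members made up 0.386% of the counts of mutant library 2 (95% Wilson interval 0.384 to 0.389%) and 0.0147% of those of Isl1Cre/+ library 3 (0.0143 to 0.0152%), where the intervals cover counting error only. The summed level was 961, 264 and 1689 cpm in WT, 263, 340 and 145 cpm in the Isl1Cre/+ libraries and 300.3, 3842 and 1080 cpm in the mutant. This is a range of 26.5-fold over the 9 libraries, of 6.40-fold within WT, 2.35-fold within Isl1Cre/+ and 12.8-fold within the mutant. Because these are bulk samples, fewer muscle cells and less RNA per muscle cell cannot be told apart.

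**Figure D1:**
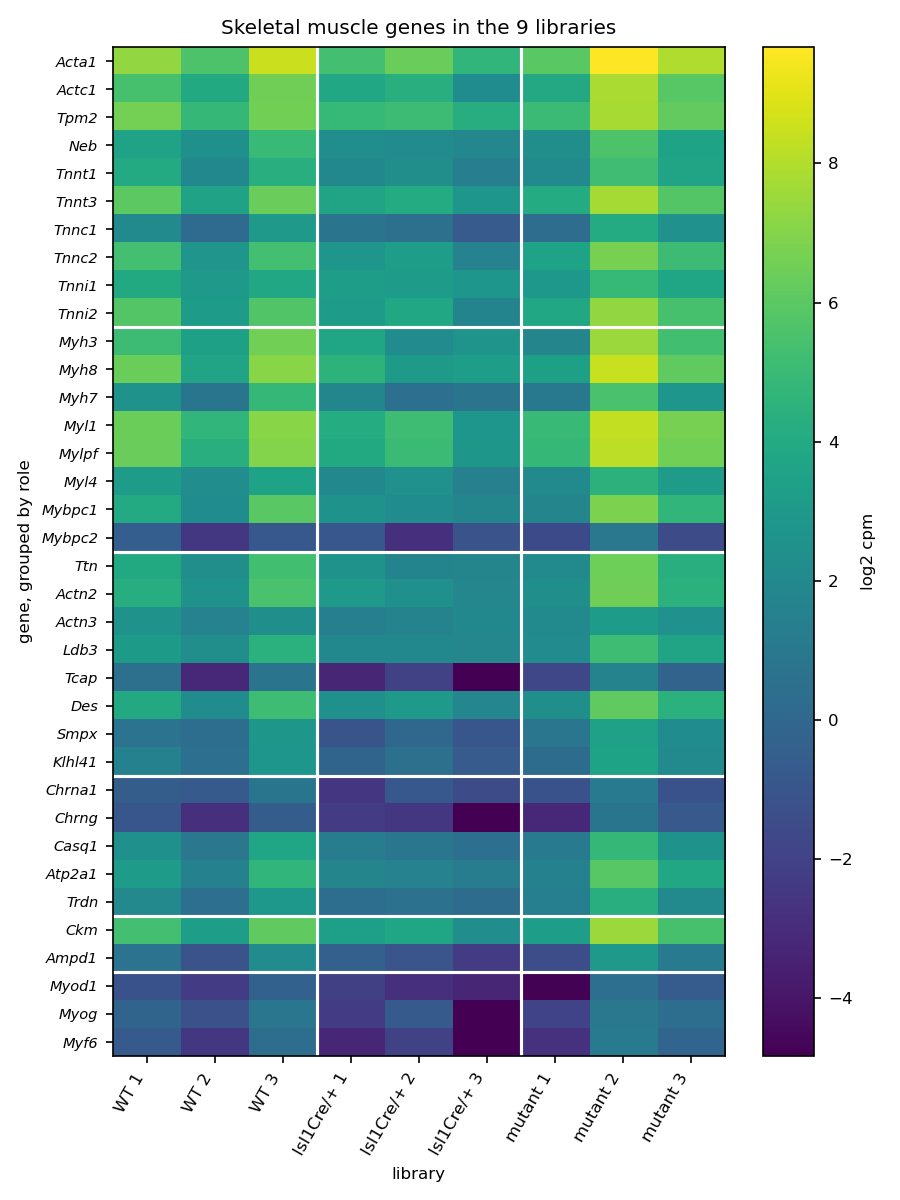
Level of each of the 36 skeletal muscle genes (vertical axis, grouped by role, with white lines between roles) in the 9 libraries (horizontal axis), coloured by log2 cpm. All 36 genes were highest in mutant library 2, and 26 were lowest in Isl1Cre/+ library 3.

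The members moved together from library to library. All 36 were highest in mutant library 2, 31 were second highest in WT library 3 and the other 5 in WT library 1, and 26 were lowest in Isl1Cre/+ library 3. Among the 29 tested members, the Pearson correlation of a gene's log2 cpm with the mean of the other members, over the 9 libraries, had a median of 0.981 and ranged from 0.876 to 0.995, with 26 above 0.95. These correlations run over libraries of 3 genotypes and are a description. The ratio of the highest to the lowest library was 26.8 at the median, from 3.40 for Actn3 to 52.6 for Myh3. Within genotypes, the SD of log2 cpm was 1.42 at the median of the members, against 0.146 over all tested genes. The member with the smallest spread, Actn3, stood at percentile 96.1 of all tested genes, and 26 members were among the 100 genes with the largest spread. For the median member, 60.9% of the variance of log2 cpm lay within genotypes, compared with 87.7% for the median of all tested genes.

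The thin filament supplied the most abundant member. Acta1, the main actin of adult skeletal muscle, had 4212, 1408 and 10508 counts in WT, 1209, 2313 and 735 in the Isl1Cre/+ libraries and 1662, 21601 and 6097 in mutant libraries. Actc1, the cardiac actin that fetal skeletal muscle also makes, had 1178, 451 and 2720 counts in WT, 411, 570 and 135 in the Isl1Cre/+ libraries and 399, 5922 and 1485 in the mutant. In both genes the genotypes overlapped, since WT library 2 and mutant library 1 lay among the Isl1Cre/+ libraries. Scaled by exon length as cpm per kilobase, Acta1 had a level of 124 ± 104 (SD, n = 3) in WT libraries, 32.3 ± 19.0 (SD, n = 3) in Isl1Cre/+ libraries and 245 ± 256 (SD, n = 3) in the mutant, where the SD exceeded the mean. Tpm2, the beta-tropomyosin, had 2687, 818 and 2763 counts in WT, 866, 959 and 521 in the Isl1Cre/+ libraries and 879, 5818 and 1813 in the mutant, and it was 1 of the 5 genes in which WT library 1 was second to mutant library 2.

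Troponin is built of a calcium-binding, an inhibitory and a tropomyosin-binding subunit, each with a slow and a fast form. Tnni2, the fast inhibitory subunit, had 1464, 263 and 1518 counts in WT, 265, 415 and 95 in the Isl1Cre/+ libraries and 392, 4257 and 1065 in the mutant. Its slow counterpart Tnni1 had 421, 219 and 422 counts in WT, 287, 243 and 200 in the Isl1Cre/+ libraries and 196, 781 and 321 in the mutant. The libraries therefore differed 48.2-fold in Tnni2 and 4.20-fold in Tnni1 on the cpm scale. On a log2 scale, Tnni1 changed by 0.43 for each unit of change in the mean of the other members, while the median slope of the members was 1.08. Tnnt3, the fast tropomyosin-binding subunit, had 1723, 333 and 2339 counts in WT, 374, 471 and 197 in the Isl1Cre/+ libraries and 452, 5561 and 1369 in the mutant. Tnnt1, its slow form, had 109 to 577 counts in WT, 75 to 143 in Isl1Cre/+ and 117 to 990 in the mutant. Both forms had mutant library 2, WT library 3, WT library 1 and mutant library 3 on top, in that order of cpm. The calcium-binding subunits had 190 to 1177 (fast, Tnnc2) and 33 to 231 (slow, Tnnc1) counts in WT, 87 to 261 and 18 to 50 in the Isl1Cre/+ libraries and 319 to 2777 and 34 to 449 in the mutant. In Tnnc2, 74.0% of the exonic bases lie opposite the gene Ube2c, and the strand option of the counting is not stated, so some of its counts could come from that gene. Neb, the giant nebulin that runs along the thin filament, had 311, 158 and 906 counts in WT, 141, 124 and 103 in the Isl1Cre/+ libraries and 134, 1310 and 299 in the mutant.

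Among the heavy chains of the thick filament, the fetal forms had the most counts. Myh8, the perinatal form, had 2286, 350 and 3879 counts in WT, 677, 235 and 276 in the Isl1Cre/+ libraries and 286, 9432 and 1727 in the mutant. Myh3, the embryonic form, had 940, 299 and 2826 counts in WT, 387, 126 and 185 in the Isl1Cre/+ libraries and 90, 4692 and 953 in the mutant. Myh7, the heavy chain of slow fibres and of the heart, had 167, 50 and 810 counts in WT, 103, 39 and 47 in the Isl1Cre/+ libraries and 54, 1204 and 166 in the mutant. Their order of libraries was not quite that of actin, because Myh3 was lowest in mutant library 1 and both Myh8 and Myh7 in Isl1Cre/+ library 2. The members with the steepest slope on the others were Myh8 (1.29) and, at 1.27 each, Myh3 and Mybpc1, a myosin-binding protein of slow fibres with 135 to 1836 counts in WT, 100 to 175 in Isl1Cre/+ and 92 to 2969 in the mutant. Among the light chains, Myl1, an essential light chain of fast fibres, had 2247, 740 and 3941 counts in WT, 518, 1027 and 196 in the Isl1Cre/+ libraries and 835, 8537 and 2585 in the mutant. Mylpf, the regulatory light chain of fast fibres, had 2148, 544 and 3644 counts in WT, 469, 919 and 207 in the Isl1Cre/+ libraries and 746, 7998 and 2326 in the mutant. Isl1Cre/+ library 2 was thus the highest of its genotype in both light chains, whereas for Myh3 and Myh8 it was the lowest. Myl4, the light chain of embryonic muscle and of the atrium, had 242, 137 and 345 counts in WT, 114, 160 and 79 in the Isl1Cre/+ libraries and 110, 602 and 227 in the mutant. Mybpc2, the fast myosin-binding protein, was low throughout with 4 to 53 counts.

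Genes of the Z-disc and its surroundings also had mutant library 2 and then WT library 3 on top, with 1 exception. Ttn, the titin spring, had 426, 144 and 1122 counts in WT, 180, 93 and 97 in the Isl1Cre/+ libraries and 117, 2375 and 486 in the mutant. Actn2, the alpha-actinin of all fibres, had 491, 168 and 1325 counts in WT, 227, 156 and 105 in the Isl1Cre/+ libraries and 140, 2453 and 530 in the mutant. Des, the intermediate filament desmin, had 132 to 1028 counts in WT, 107 to 221 in Isl1Cre/+ and 138 to 1875 in the mutant. The exception was Actn3, the alpha-actinin of fast fibres, with 167, 85 and 152 counts in WT, 80, 89 and 108 in the Isl1Cre/+ libraries and 111, 244 and 140 in the mutant, and with the shallowest slope on the other members (0.33). The 3 mutant libraries were all above the 3 Isl1Cre/+ libraries in Actn3, by a small margin. Ldb3, a Z-disc scaffold, had 142 to 623 counts in WT, 103 to 114 in Isl1Cre/+ and 118 to 960 in the mutant. Smpx, a small protein of the muscle membrane skeleton, had 44, 38 and 206 counts in WT, 14, 28 and 15 in the Isl1Cre/+ libraries and 48, 292 and 114 in the mutant. Ldb3, Smpx and, of the thin filament, Neb had every Isl1Cre/+ library, scaled to cpm, below every library of the other genotypes. The share of all genes with this order was not counted, and the shares for each pair of genotypes are given below. Klhl41, a chaperone adaptor of the sarcomere, had 18 to 320 counts over the 9 libraries, and Tcap, the cap of titin, 1 to 82.

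Genes of excitation and energy supply also had mutant library 2 and then WT library 3 on top. Atp2a1, the calcium pump of fast fibres, had 233, 84 and 770 counts in WT, 100, 86 and 68 in the Isl1Cre/+ libraries and 77, 1597 and 363 in the mutant. Casq1, which stores calcium in the sarcoplasmic reticulum, had 143, 53 and 380 counts in WT, 72, 51 and 39 in the Isl1Cre/+ libraries and 58, 756 and 153 in the mutant. Trdn, the triadin of the calcium release complex, had 39 to 218 counts in WT, 35 to 42 in Isl1Cre/+ and 72 to 524 in the mutant. In Atp2a1, 21.9% of the exonic bases lie opposite Rabep2, and the share opposite other genes is 15.5% in Ckm and 13.3% in Myh7. The acetylcholine receptor subunits of the muscle endplate were near the lower limit, with 5 to 59 counts for Chrna1 and 1 to 47 for Chrng. Ckm, the muscle creatine kinase, had 1069, 266 and 2013 counts in WT, 308, 386 and 138 in the Isl1Cre/+ libraries and 262, 4783 and 1057 in the mutant. Ampd1, the AMP deaminase of muscle, had 13 to 130 counts in WT, 6 to 23 in Isl1Cre/+ and 10 to 214 in the mutant.

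Transcription factors that specify and mature muscle were detected at few counts, too few for a test. Myod1 had 12, 6 and 23 counts in WT, 7, 4 and 3 in the Isl1Cre/+ libraries and 1, 36 and 16 in the mutant. Myog, the myogenin of differentiating cells, had 24, 12 and 52 counts in WT, 6, 17 and 1 in the Isl1Cre/+ libraries and 7, 52 and 33 in the mutant. Myf6, the factor of late fibres, had 16, 5 and 39 counts in WT, 3, 7 and 1 in the Isl1Cre/+ libraries and 4, 56 and 23 in the mutant. All 3 were highest, in cpm, in mutant library 2 and second in WT library 3, as most structural genes were. The list of muscle progenitor genes did not follow this order: its 6 genes summed to 37.5 to 56.4 cpm, a sum made mostly by Megf10, which is not restricted to muscle. Megf10 did not meet the criterion. Its log2 fold change in mutant against Isl1Cre/+ was -0.18.

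Per exon length, the level of the members over all 9 libraries ran from 134 cpm per kilobase for Acta1, 73.9 for Mylpf and 41.1 for Myl1, through 35.8 for Tnnc2, 33.8 for Actc1 and 33.4 for Tnnt3, to 7.10 for Myh3 and 6.71 for Myh8, and to 0.177 for Ttn and 0.113 for Chrng. The SD over libraries of a genotype was of the size of the mean for most members in WT and the mutant. The members shared this spread from library to library, so it does not tell whether neighbours in this order differed, which was not tested. Lengths are of merged exons, 11.8 kb for Myh8 against 6.06 kb for Myh3, and Myh8 had more counts in every library.

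Fetal forms held most of the myosin heavy chain RNA in every library, but not most of the actin or light chain RNA, measured as each isoform's share of the counts per kilobase of its family. Among 6 myosin heavy chains, Myh3 and Myh8 together had 93.0%, 90.5% and 86.9% in WT, 89.3%, 86.4% and 78.4% in the Isl1Cre/+ libraries and 82.1%, 90.3% and 91.0% in the mutant. The means were 90.2 ± 3.07% (SD, n = 3), 84.7 ± 5.66% (SD, n = 3) and 87.8 ± 4.94% (SD, n = 3), with overlapping libraries. Embryonic Myh3 alone had 31.2 to 56.5%, and slow Myh7 5.16 to 13.2%. These shares depend on merged exon lengths, which are 11.8 kb for Myh8 and 6.06 kb for Myh3. In raw counts Myh8 was above Myh3 in every library. The adult fast forms Myh1, Myh2 and Myh4 had 1.66 to 4.72% together in 8 libraries and 13.7% in Isl1Cre/+ library 3. In that library Myh4, the form of the fastest adult fibres, had 40 counts, compared with 1 to 12 in the other 8, while Myh1 had 7 and Myh2 12 counts. Of the muscle actins, Actc1 made up 21.3 ± 1.82% (SD, n = 3) in WT libraries, 19.4 ± 4.79% (SD, n = 3) in Isl1Cre/+ libraries and 19.3 ± 1.15% (SD, n = 3) in the mutant, with 14.9 to 24.4% over the 9 libraries. Reads were counted only where they mapped uniquely, so stretches that actin or myosin genes share are under-represented, to an extent that was not tested. The fetal receptor subunit Chrng had 6.34 to 79.2% of its pair with adult Chrne, on 7 to 52 counts in all, and Chrne, at 2 to 8 counts, had its highest count in WT library 1.

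The shares of Tnni1, Myl4 and Tnnt1 were highest in the library with the least muscle RNA and lowest in the library with the most. Tnni1 made up 10.7%, 25.7% and 10.4% of its pair in WT, 31.0%, 19.6% and 46.7% in the Isl1Cre/+ libraries and 17.2%, 7.09% and 11.1% in the mutant. These extremes lay in Isl1Cre/+ library 3 and mutant library 2. Myl4 showed the same extremes, at 15.3% and 3.06% of its pair with Myl1, and so did Tnnt1, at 21.5% and 11.3% of its pair with Tnnt3. Tnnc1, at 7.45 to 15.8%, had its lowest share in WT library 1 and its highest in Isl1Cre/+ library 1. Mybpc1 had 86.0 to 98.9% of its pair with Mybpc2, lowest in Isl1Cre/+ library 3. Whether cells other than muscle add a constant amount of Tnni1, Myl4 or Tnnt1 was not tested.

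**Figure D2:**
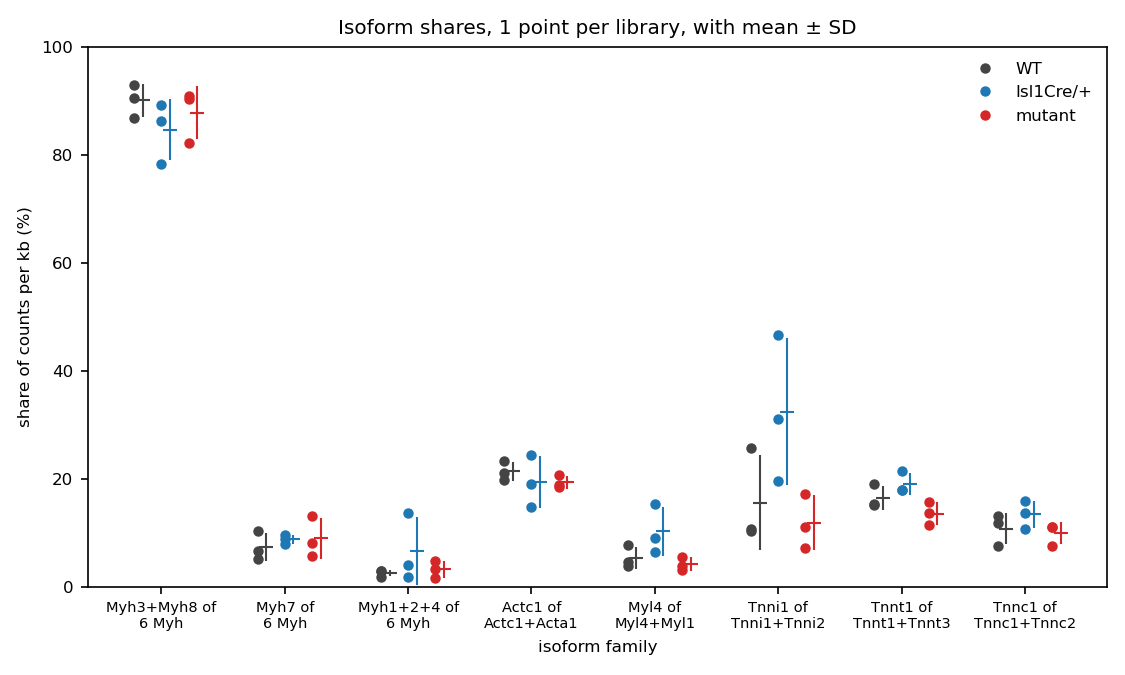
Share of the counts per kilobase (vertical axis, percent) taken by fetal, slow or adult isoforms within 8 families or pairs (horizontal axis), with 1 point per library, coloured by genotype, and mean ± SD over 3 libraries beside it. Fetal myosin lay between 78.4 and 93.0% in every library, while Tnni1 ranged from 7.09 to 46.7%.

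Heavy and light chains of myosin did not keep a fixed ratio. The counts per kilobase of Myh3 and Myh8 over those of Myl1 and Mylpf gave a ratio of 0.112, 0.0910 and 0.149 in WT, 0.176, 0.0300 and 0.187 in the Isl1Cre/+ libraries and 0.0354, 0.135 and 0.0885 in the mutant, a range of 6.23-fold that was not ordered by genotype or by the amount of muscle RNA. Isl1Cre/+ library 2 and mutant library 1 were the lowest. Both heavy chains have long and both light chains short transcripts. The ratio was set beside exon length over all tested members, these 4 genes included. The members of at least 3 kb, taken as deviations from each gene's mean log2 cpm, were lower than the 15 shorter members by 0.53 and 0.46 at the median in Isl1Cre/+ library 2 and mutant library 1, and higher by 0.43 and 0.54 in Isl1Cre/+ libraries 1 and 3. Across the tested members, the rank correlation of the deviation with log2 exon length was -0.39, 0.11 and 0.37 in WT libraries 1 to 3, 0.52, -0.51 and 0.62 in the Isl1Cre/+ libraries and -0.41, 0.18 and -0.45 in the mutant. The negative values of WT library 1 and mutant library 3 stood beside ratios of 0.112 and 0.0885. Only Isl1Cre/+ library 2 and mutant library 1 had lower ratios than mutant library 3. Over all 13193 genes with a length, the rank correlation lay between -0.25, in WT library 1, and 0.24, in WT library 2. These are correlations across genes, which are not independent, and the ratio and the split at 3 kb were chosen after the values had been seen. The part of RNA length or quality in the ratio was not tested.

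**Figure D3:**
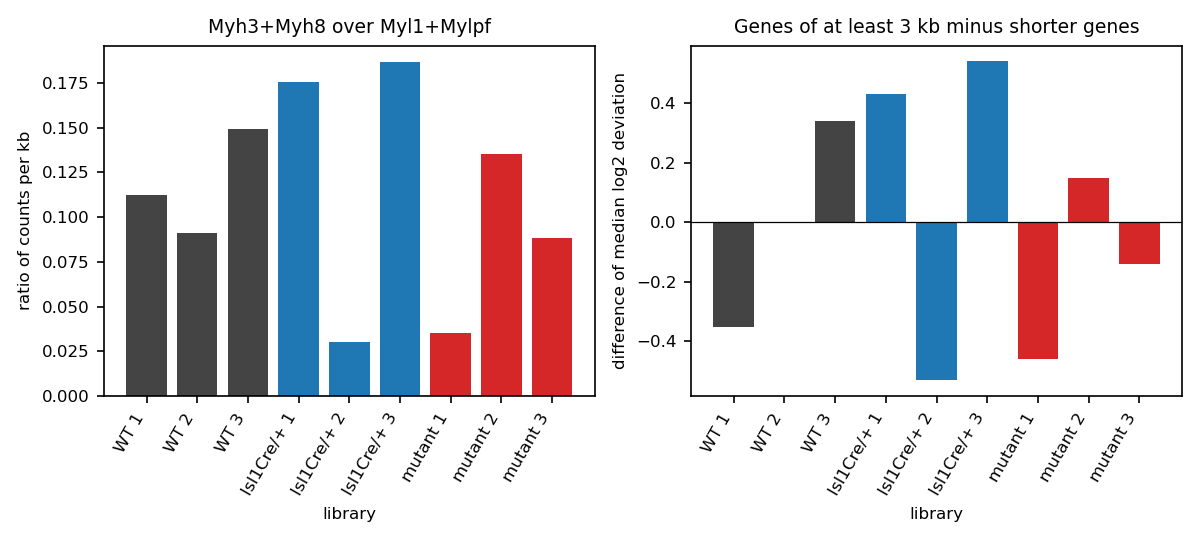
Left, counts per kilobase of Myh3 and Myh8 divided by those of Myl1 and Mylpf, and right, median log2 deviation of 14 members of at least 3 kb minus that of 15 shorter members, in each of the 9 libraries (horizontal axes), with 1 bar per library coloured by genotype. Isl1Cre/+ library 2 (0.0300) and mutant library 1 (0.0354) had the lowest ratios and also the 2 most negative length differences.

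Between Isl1Cre/+ and WT, the muscle genes were lower in Isl1Cre/+. All 29 tested members had a negative log2 fold change, with a median of -2.01, against -0.00 over all tested genes, and a range from -2.57 for Mybpc1 to -0.57 for Actn3 and Tnni1. The study called genes with limma voom at a change of 1.2-fold or more and an unadjusted p under 0.05. These thresholds, named the criterion below and applied here to edgeR fits, were met by 27 of 29, the exceptions being Actn3 and Tnni1, while 1.14% of all tested genes were called lower by it. Examples are Myh3 (log2 fold change -2.56, standard error 0.78), Acta1 (-1.93, standard error 0.71) and Ckm (-2.03, standard error 0.68). After Benjamini-Hochberg adjustment in edgeR, 0 members and 0 of all 13200 genes had an adjusted p under 0.05, while 27 members had an unadjusted p under 0.05. Only 3 members, Neb, Ldb3 and Smpx, had every Isl1Cre/+ library below every WT library, compared with 2.66% of all tested genes in that direction. Without WT library 3 the median log2 fold change of the members was -1.10. The count of 27 rested on single libraries: it was 10 without WT library 3, 9 without Isl1Cre/+ library 3 and 16 without Isl1Cre/+ library 1. It was also 9 with limma voom, the tool of the study, and 8 with all 3 genotypes in 1 fit.

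In the comparison of the mutant with Isl1Cre/+, the muscle genes were higher in the mutant. All 29 members had a positive log2 fold change, with a median of 2.92 against 0.00 over all genes, and a range from 0.98 for Actn3 and Tnni1 to 3.41 for Myh8. In the edgeR fit the criterion was met by 28 of 29, all but Tnni1, and 1.41% of all tested genes were called higher by it. Trdn (2.73, standard error 0.74), Tnnc2 (2.98, standard error 0.78) and Smpx (3.13, standard error 0.68) had the largest fold changes relative to their standard errors. After adjustment in edgeR, 0 members had a p under 0.05, against 0.00758% of all genes, while 28 had an unadjusted p under 0.05 and DESeq2 gave 1 member, Smpx, an adjusted p of 0.000726. In 7 members, Neb, Tnnt3, Tnnc2, Actn3, Ldb3, Smpx and Trdn, every mutant library was above every Isl1Cre/+ library, as in 3.38% of all tested genes. Without mutant library 2 the median was 1.42 and 23 members met the criterion, and without Isl1Cre/+ library 3 it was met by 11. With limma voom, the tool of the study, it was met by 10. Since both comparisons share the Isl1Cre/+ libraries, which are low in muscle RNA, their values are not independent of each other.

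Between mutant and WT, no muscle gene met the criterion. It was met by 0 of 29 members, against 0.318% of all tested genes. In edgeR, 0 members had an unadjusted p under 0.05, against 0.371% of all genes, and 0 had an adjusted p under 0.05, against 0.00758%. The log2 fold changes were positive in all 29, from 0.39 for Tnni1 to 1.06 for Trdn, with a median of 0.80. For Acta1 it was 0.98 with a standard error of 0.94, and for Myh3 0.61 with a standard error of 1.19. In 0 members were the libraries of the 2 genotypes apart, as they were in 2.77% of all genes. The direction rested on 1 library, since the median was -0.47 without mutant library 2, and 28 members were then lower in the mutant, Actn3 being the exception. Leaving out WT library 3 gave a median of 1.59, and 1 member, Smpx, then met the criterion.

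**Figure D4:**
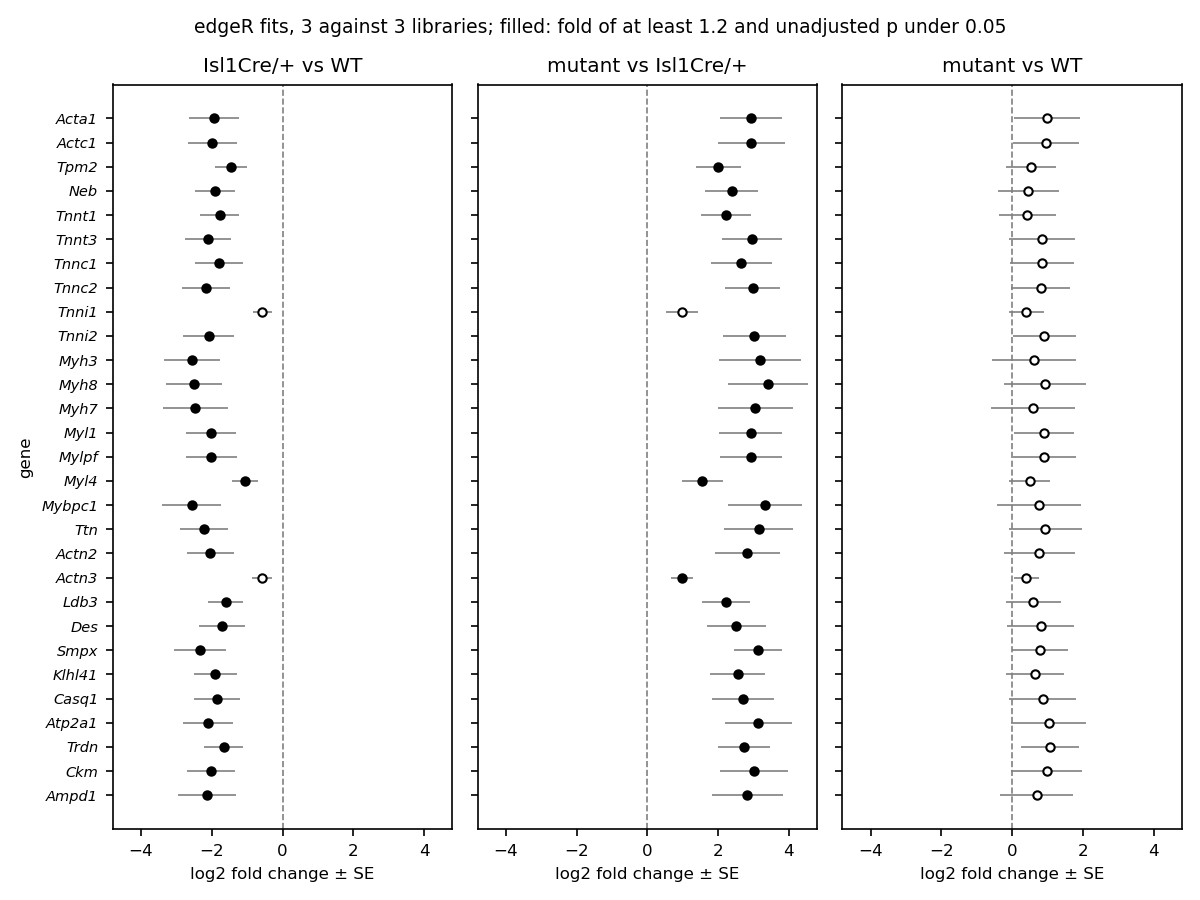
Log2 fold change (horizontal axes) with its standard error for the 29 tested members (vertical axis) in the 3 comparisons of genotypes, from edgeR fits of 3 against 3 libraries. Filled points met the fold and p criterion, 27 in the first panel, 28 in the second and 0 in the third.

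Further skeletal muscle genes outside the group were also highest in mutant library 2 in most cases. Of 58 such genes, a list also drawn up with earlier results known, 42 were tested, 52 were highest in mutant library 2, and 26 were lowest in Isl1Cre/+ library 3. Their summed level ranged 3.40-fold, from 237 cpm in mutant library 1 to 806 cpm in mutant library 2. This range rests in part on the 2 most abundant genes, Dmd and Cryab. They had 61.1 and 54.3 cpm in mutant library 1, and 68.7 and 100 cpm in mutant library 2. The criterion was met by 27 in Isl1Cre/+ against WT, all lower, by 32 in mutant against Isl1Cre/+, all higher, and by 0 in mutant against WT, with median log2 fold changes of -1.35, 2.04 and 0.49. All tested genes met it at 1.14%, 1.41% and 0.318%, in the same order and direction. The count of 27 was 3 without Isl1Cre/+ library 3, 5 without WT library 3, 5 with all genotypes in 1 fit and 11 with limma voom, and that of 32 was 9 without Isl1Cre/+ library 3, 14 without mutant library 2 and 6 with limma voom. Of these 42, 39 had a correlation over 0.8 with the mean of the members over the 9 libraries. The other 3 were Fbxo32 (0.515), Jph1 (0.422) and Dmd (dystrophin), the most abundant gene of the list, which had a correlation of -0.01 and levels of 51.8 to 84.8 cpm, and Cryab, a small heat shock protein, had 54.3 to 100 cpm. Neither is restricted to muscle.

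Markers of other tissues near the ganglia were compared in the same way. Red cell genes, led by the alpha-globins Hba-a1 and Hba-a2, summed to 787, 310 and 469 cpm in WT, 154, 331 and 113 cpm in the Isl1Cre/+ libraries and 394, 1385 and 733 cpm in the mutant. They also were highest in mutant library 2 and lowest in Isl1Cre/+ library 3, and 5 of 5 tested met the criterion in both comparisons that involve Isl1Cre/+, lower there in each. All 5 had every mutant library above every Isl1Cre/+ library, and 0 of 5 had every Isl1Cre/+ library below every WT library. The corresponding shares of all tested genes were 3.38% and 2.66%. By the criterion, 1.41% of all tested genes were higher in the mutant than in Isl1Cre/+. In Isl1Cre/+ against WT, 1.14% were lower. Smooth muscle genes, led by Smtn and Acta2, summed to 52.5 to 129 cpm, with the highest value again in mutant library 2, and 3 of 5 tested (Acta2, Myh11 and Tagln) were higher in the mutant than in Isl1Cre/+ by the criterion. Libraries did not overlap there in Myh11, Tagln and, of the cardiac list, Sln. Cardiac genes summed to 2.18 to 20.9 cpm, highest in mutant library 2. Their single tested gene was Sln, which fetal skeletal muscle also makes, at 0.562 to 16.9 cpm. It met the criterion in both comparisons that involve Isl1Cre/+, with log2 fold changes of -1.76 against WT and 2.61 for the mutant. Nkx2-5, a defining factor of the heart, had 0 counts in every library. Cartilage genes, led by Col2a1 and Cnmd, ranged from 115 to 189 cpm, bone genes, led by Alpl and Ibsp, from 41.2 to 68.3 cpm, and genes of tendon and fibroblasts, led by Col1a1 and Col3a1, from 2529 to 4783 cpm, the last list highest in mutant library 2. Brown fat genes, led by Fabp4 and Cidea, summed to 8.42 to 23.8 cpm, also highest in mutant library 2, and motor neuron genes, led by Isl2 and Slc5a7, to 178 to 229 cpm. By the criterion, 2 of 7 tested cartilage genes (Acan and Hapln1) were higher in the mutant than in Isl1Cre/+, Hapln1 without overlap of libraries, and 1 of 2 bone genes (Ibsp) was lower in Isl1Cre/+ than in WT. In the comparisons with Isl1Cre/+, 0 of 9 tested genes of tendon and fibroblasts and 0 of 8 of glia met the criterion. Which cells or tissue carried the muscle RNA, and the part of dissection in it, were not tested.

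**Figure D5:**
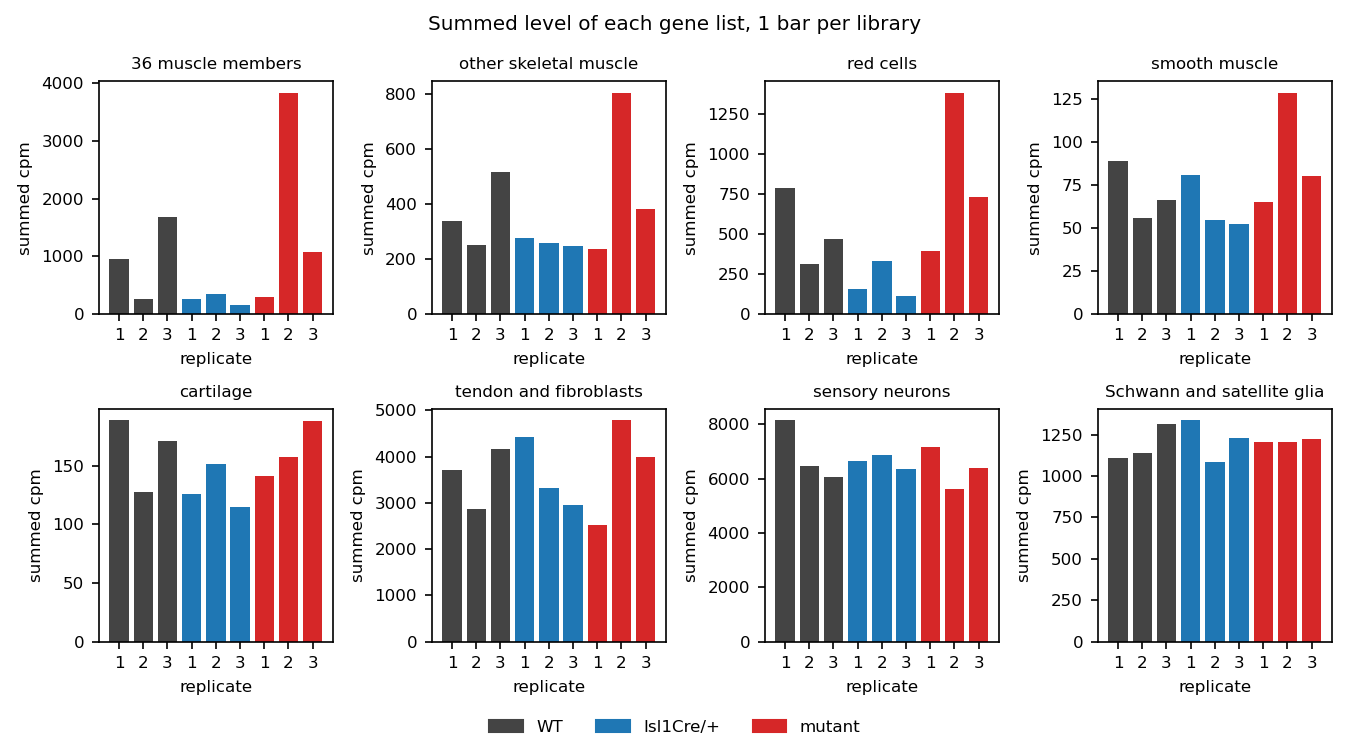
Summed cpm (vertical axes, each from 0) of the 36 muscle members, of further skeletal muscle genes and of 6 lists of other cell types, with 1 bar per library (horizontal axes, replicate number) coloured by genotype. Muscle members ranged 26.5-fold over the libraries and red cell genes 12.3-fold, while sensory neuron genes lay between 5606 and 8149 cpm.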

How the data were processed

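The 9 RNA-seq libraries of E18.5 DRGs were 3 for each of WT, Isl1Cre/+ and Isl1Cre/+::Meis2LoxP/LoxP. The deposited counts are raw: the authors selected poly(A) RNA, made libraries with unique molecular identifiers, aligned reads to mm10 with STAR 2.7.10, removed duplicates and counted unique reads per gene with HTSeq 0.6. The annotation release and the strand option are not given in the sources used here. Further deposited columns hold the authors' own comparisons (limma log2 fold changes, mean expression, statistics and p-values) and were not used.

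The members and all gene lists were chosen with earlier results of these data known. The 13200 genes that reached 100 counts in 1 or more libraries were fitted for each pair of genotypes with edgeR 4.0.16 (R 4.3.3, TMM, quasi-likelihood test, two-sided, Benjamini-Hochberg adjustment over all tested genes), and called by the thresholds that the study applied to limma voom (1.2-fold or more, unadjusted p under 0.05). With 3 against 3 libraries an exact permutation test cannot go below 0.1, and p-values measure the spread between these libraries. Levels per kilobase use merged exons of GENCODE M21 (GRCm38), which held the identifier and version of 34 of 36 members and the identifier of the other 2. Upstream windows come from RefSeq. Alternatives were other scaling, other filters, DESeq2 1.42.0, limma voom 3.58.1, 1 fit for all genotypes, the replicate number as a block, and each library left out. The genes named are the members, the partners Myh1, Myh2, Myh4 and Chrne, Meis2, the 2 most abundant genes of each list and the 10 genes most like the members. Genes of lists that met the criterion, Megf10, Fbxo32, Jph1, Nkx2-5, Ube2c and Rabep2 were named after their values had been seen. The steps were tested on simulated counts.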

Additional observations from a re-analysis of the deposited data

How the results depend on the processing

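The medians of the members kept their direction under other scaling, other filters, DESeq2, limma voom, 1 fit for all genotypes and the replicate block. Single members changed sign in 0 of 406 values over the alternatives in each comparison with Isl1Cre/+ and in 42 of 435 in mutant against WT, 28 of them without mutant library 2. Members that met the criterion lost it in 100 of 378 values for Isl1Cre/+ against WT and in 53 of 392 for mutant against Isl1Cre/+. For Isl1Cre/+ against WT, limma voom gave 9 members and 11 further muscle genes that met the criterion, 1 fit for all genotypes 8 and 5, and no filter 45 further muscle genes. There, leaving out 1 library gave 9 to 29 members and 3 to 37 further genes. The median was then -2.43, without WT library 2, to -1.10, without WT library 3. For mutant against Isl1Cre/+, limma voom gave 10 members and 6 further genes, and leaving out 1 library 11 to 29 members, 9 to 38 further genes and a median of 1.42 to 3.40. For mutant against WT, no filter gave 1 further gene (Myh4), and leaving out 1 library 0 to 1 members and a median from -0.47, without mutant library 2, to 1.59. The causes of the differences between tools were not tested. Leaving out mutant library 2 and WT library 3 together, a setting chosen after seeing the data like all settings for the further muscle genes, gave 0 members and a median of 0.24.

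Correlations of the deviations of same-numbered libraries ranged from -0.58 to 0.40. Differently numbered libraries were not compared, so these values cannot tell whether the replicate numbers pair libraries. With the number as a block, 18, 21 and 0 members met the criterion in the 3 comparisons, with medians of -1.70, 2.25 and 0.26, and 18, 23 and 0 of the further muscle genes. The lowest adjusted p of any member under an alternative was 0.000726, for Smpx in mutant against Isl1Cre/+ with DESeq2, the single member under 0.05 there; it was 0.458 and 0.994 in the other 2 comparisons. Members with under 100 counts in every library are limited by depth, and their shares and ratios rest on few counts.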

Other observations

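The 10 tested genes outside the muscle lists whose log2 cpm followed the mean of the members most closely over the 9 libraries were Adssl1 (Pearson correlation 0.991), Itgb1bp2 (0.986), Cilp (0.983), Hjv (0.982), Csrp3 (0.977), Lmcd1 (0.977), Mypn (0.974), Synpo2l (0.974), Myo18b (0.974) and Trim72 (0.974). Of 13123 genes compared, 20 outside the muscle lists had a correlation over 0.95. Several of these are known from striated muscle, such as Csrp3, a muscle LIM protein, Mypn, the Z-disc protein myopalladin, and Trim72, a membrane repair protein, while Cilp is known from cartilage. Csrp3 had 123, 33 and 302 counts in WT, 34, 60 and 19 in the Isl1Cre/+ libraries and 52, 517 and 209 in the mutant. Cilp, with 90, 60 and 110 counts in WT, 63, 70 and 57 in the Isl1Cre/+ libraries and 64, 127 and 89 in the mutant, ranged 2.40-fold in cpm, and Trim72, at 2 to 102 counts, 54.9-fold.

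Isl1Cre/+ library 3 combined the lowest summed level of the members with the highest counts of Myh4, a gene that the other 8 libraries held at 1 to 12 counts. In the same library Myh1 had 7 counts, between the 9 and 2 of the other Isl1Cre/+ libraries, and Myh2 had 12, against 7 and 9.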
